A study of Macaca mulatta and Mus musculus and Rattus norvegicus with 12 samples.

Results

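The annexins are a family of 10 genes followed here in bone from the skull and the leg: ANXA1, ANXA2, ANXA3, ANXA4, ANXA5, ANXA6, ANXA7, ANXA8, ANXA9 and ANXA11. They were found by their gene symbol, and each had 1 row in mouse, rat and rhesus macaque, out of 13982 symbols shared by all 3 species. The family was selected on the mouse fold change of ANXA8, so mouse differences between the sites are given as a description, without a test. The 9 members other than ANXA9 had a read in each species and stood among the 10536 symbols tested.

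RNA was sequenced from bone enriched for osteocytes, the cells buried in bone matrix, of calvaria (the roof of the skull) and of tibia (the long bone of the lower leg). C57BL6 mice aged 4 months gave 2 libraries of calvaria, M4 and M8, and 2 of tibia, M5 and M7, with 3 animals pooled in each. The methods describe these as 2 skull and tibia pairs, so the sites share animals. The pairs are not named, and the mouse fit had no block for them. Wistar rats aged 6 months gave 1 library of calvaria, R1, and 1 of tibia, R3, with 2 animals pooled in each and no replicate. These 2 libraries are also described as a pair. Rhesus macaques gave 3 libraries of calvaria, G1, G3 and T1, and 3 of tibia, G2, G4 and T2, with 1 animal in each; the labels state an age of 4 to 6 months, whereas the study's methods give the same figures in years. All animals were female according to the methods, and neither these nor the labels name a treatment or genetic change. Marrow was spun out of rodent tibias only, while rodent calvariae were cut without sutures and away from marrow spaces. Periosteum was removed from every bone, accessible surfaces were scraped, and all samples were put briefly in collagenase. Reads on named genes numbered 13934813 to 16826535 in mouse, 12233256 to 14255423 in rat and 7951585 to 10342459 in macaque. Rodent libraries ran on one sequencing lane and macaque libraries on another, so a difference between macaque and rodents cannot be told apart from lane, genome or annotation. Osteocyte markers (SOST, DMP1, MEPE, PHEX, PDPN and FGF23) were present in every species, except that FGF23 had no reads in rat and SOST only 5 and 15 reads there. Neutrophil markers (ELANE, MPO, S100A8, S100A9, LTF and CAMP) together took 1.07% to 17.6% of the normalized reads of a library, so RNA of marrow cells was present beside that of osteocytes.

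Annexins are proteins that bind phospholipid membranes when calcium is present, through a conserved core of repeats, and differ mainly in their N-terminal tails, which carry partner proteins of the S100 family and others. They take part in membrane repair, vesicle traffic and the control of inflammation. In mineralizing tissue, annexins are known as constituents of matrix vesicles, the membrane particles in which mineral first forms, and ANXA5 and ANXA6 are among those found there.

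Together the 10 genes took 0.205% to 0.265% of the reads on genes in mouse, 0.297% and 0.269% in rat calvaria and tibia, and 0.103% to 0.131% in macaque. Levels were compared between genes as RPKM, the normalized counts (CPM) divided by the exon length in kilobases. ANXA1, a protein induced by glucocorticoids that acts on formyl peptide receptors, had the highest median in both rodents, at 951 RPKM over the mouse libraries (775 to 1107) and 1491 in rat (1171 and 1812). In mouse it stood above ANXA5 (median 470, 285 to 543) and ANXA2 (median 401, 323 to 409), whose ranges overlapped each other. In macaque no annexin led: ANXA11 (median 172), ANXA2 (162), ANXA1 (153), ANXA7 (133) and ANXA5 (126) each overlapped the next in the order. ANXA3 followed at 110 RPKM in mouse, 128 in rat and 43.0 in macaque. ANXA4, ANXA6 and, in mouse and rat, ANXA7 lay between 19.1 and 55.5 in their medians, and in macaque ANXA4 and ANXA6 lay at 28.5 and 14.8.

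The lower end of the order differed between the species. ANXA11, which binds RNA granules and the calcium sensor PDCD6, had 1 or 2 reads in each mouse library, against 3198 and 3205 reads in the rat libraries and 1858 to 3242 in macaque. In the mouse genome (GRCm38) ANXA11 lies on the plus strand at chr14:25842156-25886804. Of its 125-base transcript windows, the length of a read here, 12.6% were identical to windows of Gm2260 or Gm2274, and the adjoining genes PLAC9A (99.7% of windows shared) and TMEM254A (73.7%) had no reads in any mouse library. How far reads matching more than 1 place lowered the mouse value of ANXA11 was not tested. ANXA9, an annexin whose calcium-binding sites have degenerated, had 86 and 118 reads in the calvaria of mouse, where tibia had 131 and 89. Rat calvaria had 2 reads and rat tibia none, and in macaque it had no reads in any of the 6 libraries.

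**Figure D1:**
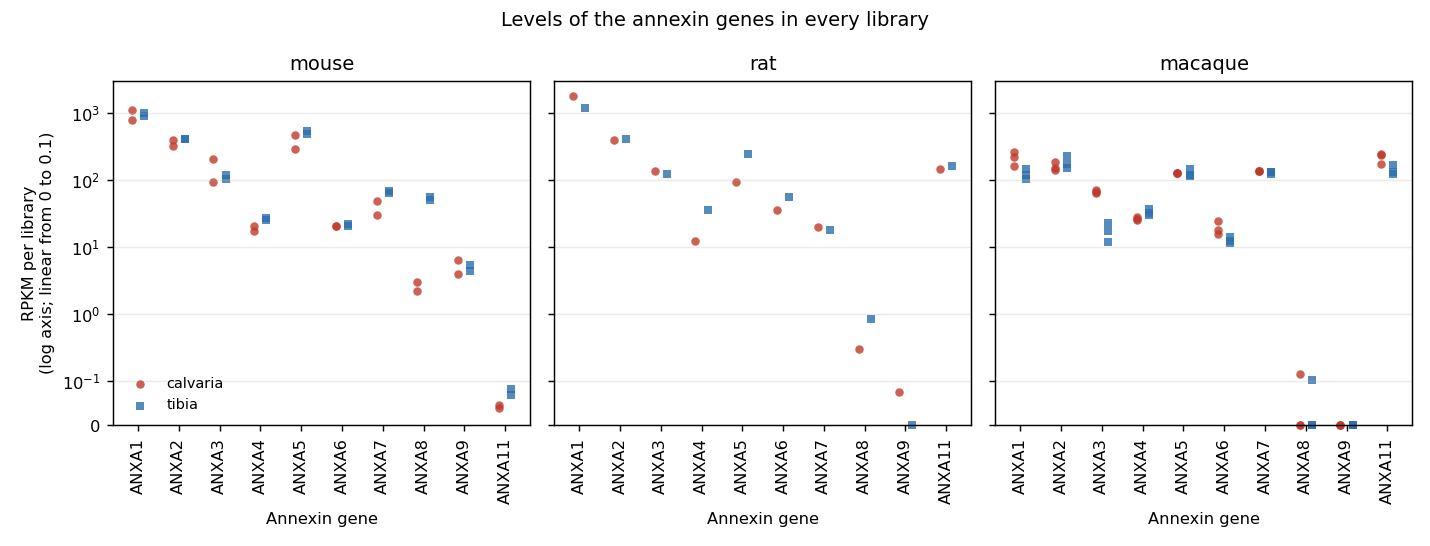
RPKM (log axis, linear from 0 to 0.1) of each annexin gene in every library, with calvaria as red circles and tibia as blue squares, in a panel per species. ANXA1 tops both rodent panels, ANXA8 separates the sites in mouse (2.19 and 3.03 against 50.5 and 55.1 RPKM), and ANXA8 and ANXA9 lie at or near 0 in macaque.

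ANXA8, an annexin best known from stratified epithelium and from its high level in acute promyelocytic leukaemia, was a gene of the tibia in mouse. It had 60 reads in M4 and 37 in M8 from calvaria, against 1246 in M5 and 945 in M7 from tibia. As CPM, the reads scaled to a common library size, these were 5.71 and 4.12 against 104 and 95.05, with means of 4.91 ± 1.12 and 99.4 ± 6.10 (SD, n = 2 each). The lower tibia library was thus far above the higher calvaria library, and the fitted log2 fold change of calvaria over tibia was -4.33 (SE 0.268), which is 20.1-fold lower in calvaria. This is the difference ANXA8 was singled out for, so it carries no test. Within the mouse family, ANXA8 in tibia, at 55.1 RPKM in M5 and 50.5 in M7, was below ANXA7 in those libraries (62.8 and 67.5). In calvaria, at 3.03 RPKM in M4 and 2.19 in M8, ANXA8 was below ANXA9 (3.99 and 6.40).

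The high level of ANXA8 was not met in the other species. In rat, 5 reads in calvaria and 13 in tibia gave 0.577 and 1.64 CPM, a tibia level 2.84 times that of calvaria with an exact 95% interval from 0.950 to 10.2, which covers counting error only. In macaque ANXA8 had no reads in G1, G3, G2 and G4 and 1 read each in T1 (calvaria) and T2 (tibia). The limit of 3 reads in a macaque library corresponds to 0.438 to 0.576 CPM, so no difference between the sites was detectable at this depth and no fold is given.

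In the mouse genome ANXA8 lies on the plus strand at chr14:34085981-34100571 (GRCm38), with 12 merged exons of 1880 bases. None of these bases fell in an exon of another gene, and none of its 1879 windows of 125 bases was shared with another gene. The protein-coding gene A630023A22Rik overlaps it on the other strand without sharing exon bases.

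Several markers of other cells had the order of ANXA8 over the mouse libraries, and they are given as values. COL2A1, the main cartilage collagen, stood at 86.4 and 15.2 CPM in calvaria and at 872 and 700 in tibia. The 7 chondrocyte markers together had 157 and 50.2 CPM in M4 and M8, and 1087 and 924 in M5 and M7, which is the order of ANXA8 in these 4 libraries, though COL9A1 overlapped between the sites (1.997 and 0.445 CPM in calvaria, 1.41 and 0.603 in tibia). In rat they summed to 12.3 CPM in calvaria and 49.8 in tibia, and in macaque to 16.0 to 18.5 in calvaria and 8.82 to 15.5 in tibia. Of the keratinocyte markers, KRT5, KRT14 and KRT15 had no reads in mouse or rat, while the whole list summed to 8.08 and 4.45 CPM in M4 and M8 and to 11.3 and 10.9 in M5 and M7, again in the order of ANXA8. Adipocyte markers had that order too, at 761 and 288 CPM against 1940 and 1503, as did endothelial markers, at 134 and 93.8 against 208 and 199.7. Osteocyte markers were also higher in tibia in their sum, at 2745 and 1520 CPM in M4 and M8 against 11223 and 15246 in M5 and M7. SOST, the osteocyte inhibitor of bone formation, had 1929 and 1021 CPM in calvaria and 8726 and 12255 in tibia. FGF23 alone of the list overlapped between the sites (5.52 and 2.11 CPM in calvaria, 4.74 and 2.01 in tibia). The part of any of these cells in the ANXA8 difference was not tested. In whole bone, fewer cells of a type and less RNA per cell cannot be told apart, which holds for every difference given here.

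The genes whose levels followed ANXA8 most closely over the 12 libraries, by Pearson r of log2(CPM + 1) centred on each species' mean, were CXCL14, a chemokine (r = 0.970), CAST, the calpain inhibitor calpastatin (0.952), ID4, an inhibitor of helix-loop-helix factors (0.940), HBEGF, an EGF receptor ligand (0.934), and ABLIM3, an actin-binding protein (0.927). They came from 7936 candidates, and 98.0% of the variation of ANXA8 lay in the 4 mouse libraries, so r mostly repeats the order of those. Their mouse log2 fold changes ran from -0.84 (CAST) to -2.80 (CXCL14), all smaller in size than that of ANXA8. In macaque, where ANXA8 was at its floor, they lay between -0.50 and 0.47.

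**Figure D2:**
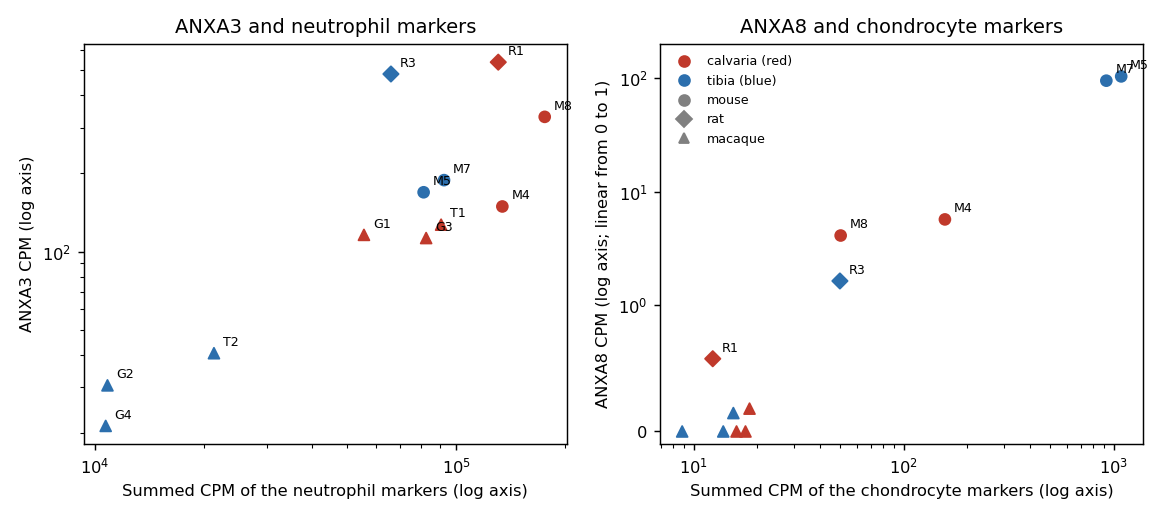
Left, ANXA3 CPM against the summed CPM of the neutrophil markers; right, ANXA8 CPM against the summed CPM of the chondrocyte markers, in the 12 libraries (red calvaria, blue tibia; circles mouse, diamonds rat, triangles macaque; log axes, with ANXA8 linear from 0 to 1). The 3 macaque tibia libraries are lowest in both ANXA3 and neutrophil markers, and the 2 mouse tibia libraries are highest in both ANXA8 and chondrocyte markers.

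The question in macaque was whether any annexin differed between calvaria and tibia. The family was selected on a mouse fold change. Earlier results of these data were known at that choice, so the macaque test may not be fully independent of it. By edgeR's quasi-likelihood test with an FDR (the adjusted p) below 0.2 and more than 1.1-fold change, 4 of the 8 members with more than 3 reads in a library were called: ANXA3, ANXA1, ANXA11 and ANXA6. All 4 were higher in calvaria. Among all 10536 symbols tested, 26.7% were called in either direction and 14.1% as higher in calvaria. These symbols include ones with few reads. After a low-count filter (filterByExpr of edgeR), 2873 of 8246 symbols were called, 1457 of them higher in calvaria, beside 4 of 8 members. Over the 8 members the median log2 fold change of calvaria over tibia was 0.351, and over all tested symbols it was 0.00959. Calvaria and tibia libraries did not overlap for 6 of the 8 members, against 30.4% of all symbols. The methods state that skull and tibia were taken as pairs from individual macaques, so the 6 libraries are not 6 independent animals, but neither they nor the labels name the pairs. The fit has no block for the animal. Its p-values set the difference between the sites against the spread among these libraries, which the fit treats as independent. With neighbouring codes assumed as pairs, a fit with this block also called 4 members, where 3573 of the 10536 symbols were called.

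ANXA3, a cytosolic protein abundant in neutrophils, had the largest difference of the macaque members. It stood at 116 CPM in G1, 113 in G3 and 127 in T1 from calvaria, and at 30.5 in G2, 21.3 in G4 and 40.6 in T2 from tibia. The lowest calvaria library was well above the highest tibia library, and the log2 fold change was 1.94 (SE 0.227), a 3.84-fold higher level in calvaria (edgeR adjusted p = 5.46e-05). ANXA1 had 345, 250 and 404 CPM in G1, G3 and T1, and 186, 160 and 231 in G2, G4 and T2. Its sites came close, at 250 and 231 CPM, without overlapping, and the log2 fold change was 0.79 (SE 0.198, edgeR adjusted p = 0.0160).

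ANXA11 had 590, 585 and 426 CPM in macaque calvaria and 416, 321 and 295 in tibia. The sites did not overlap, but T1 was only just above G2, and the log2 fold change was 0.63 (SE 0.186, edgeR adjusted p = 0.0360). ANXA6, the large annexin with a duplicated core and a constituent of matrix vesicles, had 46.6, 72.6 and 52.5 CPM in calvaria and 35.8, 33.2 and 41.0 in tibia. Its log2 fold change was 0.64 (SE 0.218, edgeR adjusted p = 0.0693), and it was no longer called when G3, the highest calvaria library, was left out (0.44, edgeR adjusted p = 0.257), or without the tibia library G2 (0.62, edgeR adjusted p = 0.2003). At an absolute log2 fold over 1.1, ANXA3 alone of the 4 was called.

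**Figure D3:**
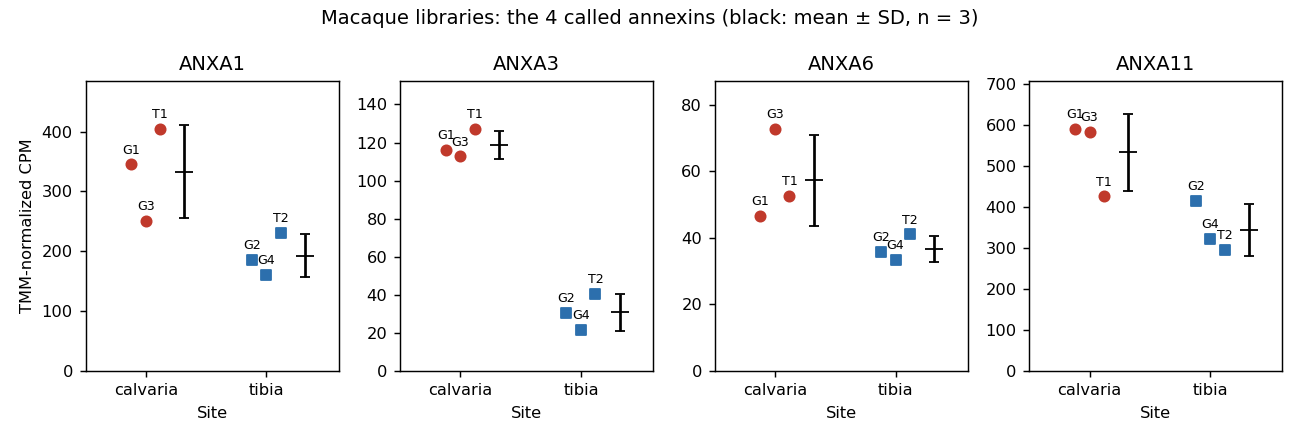
TMM-normalized CPM (axes from 0) of ANXA1, ANXA3, ANXA6 and ANXA11 in the 6 macaque libraries, calvaria as red circles and tibia as blue squares, with the mean ± SD of the 3 libraries of a site in black. Calvaria lies above tibia in all 4 panels, with the widest gap in ANXA3 (113 against 40.6 CPM) and narrow ones in ANXA1 and ANXA11.

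Markers of other cells differed between the macaque sites in the same direction. All 5 tested neutrophil markers were called higher in calvaria, with a median log2 fold change of 2.46, and their sum was 5.55%, 8.25% and 9.08% of normalized reads in G1, G3 and T1 against 1.08%, 1.07% and 2.14% in G2, G4 and T2. Within a site the order of the libraries matched only in part. T1 and T2 were the highest of their site in the neutrophil sum, ANXA3 and ANXA1, but the lowest in ANXA11, and G3 had more neutrophil reads than G1 with less ANXA1 and ANXA3, while ANXA6 was highest in G3. Called as higher in calvaria were also 2 of 2 tested B cell markers, the 1 tested erythroid marker, 3 of 4 adipocyte markers, 2 of 3 osteoclast markers and 1 of 3 chondrocyte markers, whose median log2 fold change was 1.79. Called as higher in tibia were 2 of 5 osteocyte markers, 2 of 5 osteoblast markers, 2 of 3 tendon markers and 1 of 3 muscle markers. Of all 10536 macaque symbols tested, 1481 were called as higher in calvaria and 1331 as higher in tibia. The part of these cells in the differences of ANXA3, ANXA1, ANXA11 and ANXA6 was not tested.

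The other 4 macaque members with enough reads were not called. ANXA2, which assembles plasminogen and its activator at the cell surface together with S100A10, had 276 to 363 CPM in calvaria and 295 to 444 in tibia, with a log2 fold change of -0.21 (SE 0.184, edgeR adjusted p = 0.522). ANXA4, an annexin of epithelia and exocytic cells, had 59.9, 54.3 and 56.5 CPM in calvaria and 69.2, 64.4 and 81.0 in tibia, without overlap, with a log2 fold change of -0.33 (SE 0.185, edgeR adjusted p = 0.285). ANXA5, whose binding to phosphatidylserine is used to stain dying cells, had 243 to 245 CPM in calvaria and 218 to 279 in tibia (log2 fold change 0.02, SE 0.159, edgeR adjusted p = 0.956). ANXA7, which fuses membranes and binds sorcin, had 295 to 304 CPM in calvaria and 274 to 294 in tibia (log2 fold change 0.07, SE 0.147, edgeR adjusted p = 0.808). Its sites did not overlap, but the gap between 294 and 295 CPM was small.

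In mouse the differences between the sites lay mostly on the side of tibia. Of the 8 members with more than 3 reads among the tested symbols, the fit called 1, ANXA8, where 0.304% of all tested symbols were called; as ANXA8 chose the family, nothing is read from this. Leaving ANXA8 aside, the sites did not overlap in 4 of 7, where 40.0% of all symbols had no overlap, and in each of these tibia was higher. They were ANXA7 (log2 fold change -0.74, SE 0.286), ANXA4 (-0.48, SE 0.201), ANXA5 (-0.45, SE 0.287) and ANXA2 (-0.17, SE 0.209). ANXA7 had 146 and 89.2 CPM in M4 and M8 from calvaria and 190 and 205 in M5 and M7 from tibia. ANXA4 had 54.0 and 45.6 CPM in calvaria and 71.3 and 67.4 in tibia. The median over the 7 members without ANXA8 was -0.17, and over all tested symbols it was 0.0392; both are descriptions.

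The remaining mouse members overlapped between the sites, and both mouse calvaria libraries differed from each other. ANXA3 had 149 CPM in M4 and 330 in M8, on either side of the tibia values of 169 and 188 (log2 fold change 0.42, SE 0.393). Its direction depended on the calvaria library, at 0.89 without M4 and -0.26 without M8, and ANXA7 and ANXA5 moved likewise in size, from -0.43 to -1.15 and from -0.15 to -0.84. M8 also had the higher neutrophil sum, 17.6% of normalized reads against 13.4% in M4, and both were above M5 (8.12%) and M7 (9.25%). In M4 this held for MPO, CAMP, S100A8 and S100A9. ELANE in M4 (463 CPM) was below M5 (489) and M7 (500), and LTF in M4 (3501) lay between M5 (3683) and M7 (3474). ANXA1 had 1081 and 1544 CPM in calvaria and 1410 and 1243 in tibia (-0.02, SE 0.251), and ANXA6, at 54.7 to 57.8 CPM in all 4 libraries, was the most even member (-0.03, SE 0.188). ANXA9, fitted over all 22339 mouse symbols with a read, had a log2 fold change of 0.10 (SE 0.404). ANXA11 was at its floor.

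In rat, none of the 9 members in the tested set passed an absolute log2 ratio of 2, which 7.16% of all symbols did. Past 1 were 3 members, against 23.2% of all symbols, and all of these were higher in tibia, as were 81.9% of all symbols past 1. ANXA4 had 33.1 CPM in calvaria and 97.8 in tibia (log2 ratio -1.56 with 1 read added), and ANXA5 had 147 and 378 (-1.36). ANXA8 was the third, from 5 and 13 reads (-1.35). ANXA6 had 121 CPM in calvaria and 192 in tibia (-0.67), while ANXA1 was the member with the largest ratio toward calvaria, at 3060 against 1978 CPM (0.63). ANXA3 (0.15), ANXA7 (0.15), ANXA2 (-0.04) and ANXA11 (-0.13) lay closer to 0, and the median of the 9 members was -0.131 against -0.198 over all symbols. These ratios are scaled by library size, and TMM factors, as used in the other species, raise every rat log2 ratio by 0.2003, which turns ANXA2 to 0.16 and ANXA11 to 0.07. With 1 library per site they compare the libraries only.

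Side by side, ANXA4 was lower in calvaria than in tibia in all 3 species and without overlap in mouse and macaque, at log2 values of -0.48 in mouse, -1.56 in rat and -0.33 in macaque. ANXA3 was higher in calvaria in the mouse and macaque fits (0.42 and 1.94) and in the rat ratio (0.15). Its mouse sites overlapped, and its mouse value turned to -0.26 without M8. The tests of these directions are those given for macaque, where ANXA3 was called and ANXA4 was not.

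**Figure D4:**
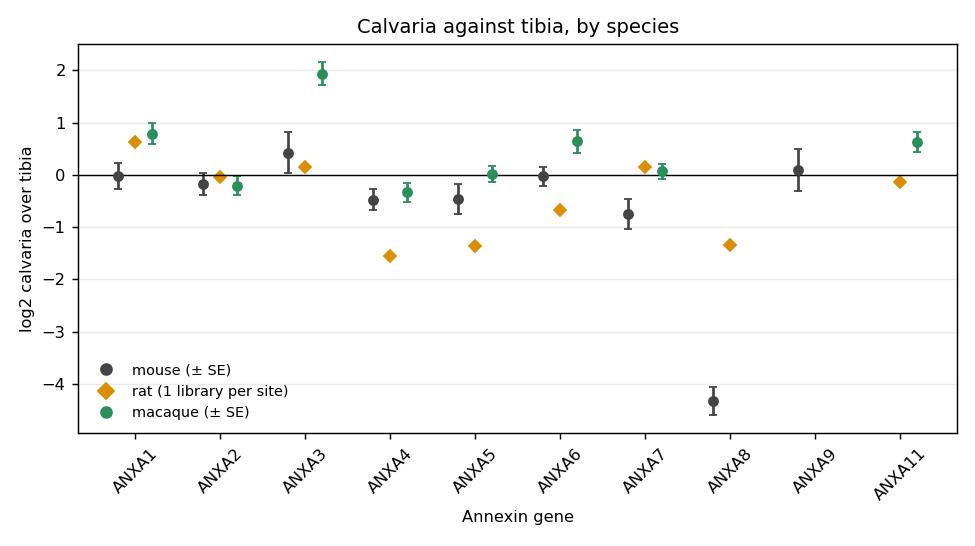
log2 of calvaria over tibia for each annexin in mouse (dark circles, ± SE, n = 2 per site), rat (orange diamonds, 1 library per site, no error) and macaque (green circles, ± SE, n = 3 per site), for genes with more than 3 reads in a library. The mouse value of ANXA8 (-4.33) is the largest in size, and ANXA3 (1.94) leads in macaque.

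The binding partners, receptors and repair proteins of annexins were followed as a list of 17 genes. In macaque 11 had more than 3 reads in a library and were tested; 4 were called higher in calvaria, 2 higher in tibia, and 5 were not called, where 26.7% of all symbols were called and 14.1% as higher in calvaria. With assumed pairs as a block 7 were called (DYSF added) and with the letter of the library code as a batch 8 (DYSF and S100A4 added). These fits called 3573 and 3592 of all 10536 symbols. After the low-count filter 6 of 10 partner genes were called, where 2873 of 8246 symbols were. The receptors of ANXA1 were among those higher in calvaria; their macaque rows received these symbols from the RefSeq table. FPR2 had 11.1, 6.15 and 8.33 CPM in calvaria and 1.98, 1.04 and 1.46 in tibia (log2 fold change 2.50, SE 0.489, edgeR adjusted p = 0.00335), and FPR1 had 8.74, 9.79 and 12.5 against 4.95, 3.46 and 4.38 (1.27, SE 0.380, edgeR adjusted p = 0.0390). Both receptors are expressed by neutrophils, whose markers were higher in the same libraries; their part was not tested. SRI, the sorcin bound by ANXA7, was higher in calvaria (297 ± 37.0 against 173 ± 56.5 CPM, SD, n = 3; log2 fold change 0.78, edgeR adjusted p = 0.0234). S100A6, an S100 protein that binds several annexins, was called with overlapping sites (0.45, edgeR adjusted p = 0.157).

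On the tibia side was AHNAK, the giant scaffold protein recruited by ANXA2 and S100A10. It had 96.1, 84.5 and 82.2 CPM in macaque calvaria and 180, 170 and 135 in tibia (log2 fold change -0.88, SE 0.173, edgeR adjusted p = 0.00338). In mouse AHNAK had 464 and 311 CPM in calvaria and 810 and 886 in tibia (-1.13, SE 0.262), and in rat 174 and 779 CPM (log2 ratio -2.16). It was lower in calvaria in every species, and its sites overlapped in neither mouse nor macaque. PLAT, the tissue plasminogen activator, was also called as higher in macaque tibia with overlapping sites (-0.56, edgeR adjusted p = 0.0889), a call lost without G2, G3, G4 or T1, as was that of S100A6; by contrast S100A10 itself had 1762 ± 180 CPM in calvaria and 1802 ± 38.2 in tibia (-0.03, edgeR adjusted p = 0.930). S100A11 and PDCD6, the partners of ANXA1 and ANXA11, had at most 4 and 2 reads in a macaque library, against 4007 to 5634 and 190 to 351 in mouse. ANXA10 and ANXA13, the annexins outside the 10, had no reads in any species. Of the 12 partner genes tested in mouse the quasi-likelihood test called 0, with 2 at an unadjusted p under 0.05. DESeq2 and edgeR's exact test each called 1, AHNAK. Of all 10536 symbols in mouse, the quasi-likelihood test called 32, DESeq2 282 and the exact test 342.

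Of 7 genes of matrix vesicle mineralization, 6 were tested in macaque and 1 was called, where 26.7% of all symbols were called. With so few genes nothing is read from this share. With assumed pairs as a block, or the letter of the library code as a batch, 4 were called (ALPL, PHOSPHO1 and SLC20A1 added). These fits called 3573 and 3592 of all 10536 symbols. Without T2 3 were called (ALPL and PHOSPHO1 added), where 3612 of 10457 symbols were. The seventh, the pyrophosphate transporter ANKH, had no mouse row. Fitted over all 18894 macaque symbols with a read, it was called as higher in tibia (-0.55, SE 0.184, edgeR adjusted p = 0.0495). That fit called 2 genes of the list, ANKH and ENPP1, where 3724 of the 18894 symbols were called. ENPP1, which makes the mineralization inhibitor pyrophosphate, was higher in tibia, at 393, 391 and 288 CPM against 265, 151 and 170 in calvaria (log2 fold change -0.87, SE 0.212, edgeR adjusted p = 0.0135). ALPL, the alkaline phosphatase that degrades pyrophosphate, had 96.3 ± 46.5 CPM in calvaria and 69.4 ± 62.2 in tibia (0.47, SE 0.459, edgeR adjusted p = 0.563). The matrix vesicle annexins ANXA5 and ANXA6 are given above, with only ANXA6 called and in the direction of calvaria. In mouse the quasi-likelihood test of edgeR called 0 of 6 matrix vesicle genes, as did DESeq2 and edgeR's exact test, with 0 at an unadjusted p under 0.05. These 3 tests called only 32, 282 and 342 of all 10536 mouse symbols, so nothing is read from 0 of 6.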

How the data were processed

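RNA was poly(A)-selected and sequenced as single reads. The paper names HISAT2 for mapping, with the macaque reads mapped to MacaM, and HTSeq-count without strand on merged exons; the submitters' processing notes for mouse and rat name BWA 0.7.10-r789, HTSeq, edgeR 3.16.5, mm10 and rn6. The deposited count of reads per gene and library is not normalized and was the value used here. The normalized signal that the authors deposited beside it was not used, and the other deposited columns used were gene lengths (other), for RPKM. Rows naming no gene (0.00261% to 0.0663% of reads) were left out. Of 17111 macaque rows with LOC symbols, 5939 received a symbol from a RefSeq table of a newer assembly, used for names only.

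Each replicated species had its own fit in edgeR 4.0.16 (R 4.3.3, TMM factors, quasi-likelihood test, Benjamini-Hochberg over 10536 symbols), without a block. SE is the log2 fold change over the square root of F. Genes at 3 reads or fewer in every library got no fold. Rat ratios used 1 added read. Named genes were all members, called partner and matrix vesicle genes, a few uncalled ones for context, chosen after their values were seen, and the 5 genes most like ANXA8. Members and lists were chosen with earlier results of these data known. Mouse coordinates and windows come from GENCODE on GRCm38. Alternatives covered the genes tested, low-count filters, RLE and library-size scaling, DESeq2 1.42.0, edgeR's exact test, assumed pairs, the letter of the library code, thresholds and each library left out. The steps were tested on simulated data. Python 3.11.15, pandas 2.3.3, numpy 2.4.6 and matplotlib 3.10.9 were used.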

Additional observations from a re-analysis of the deposited data

Results flagged for a closer look

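ANXA7 had opposite directions in mouse and macaque without overlap between the sites in either: tibia was higher in mouse (log2 fold change -0.74) and calvaria in macaque (0.07), so the macaque value minus the mouse value was 0.81. This difference was not tested, the macaque value was within its standard error of 0, and it became -0.0324 with library size alone.

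Annexin rows outside the family also had reads. The rat row ANXA2-PS1, a pseudogene of ANXA2 by its name, had 1356 reads in all, 592 in calvaria and 764 in tibia, beside 4579 and 4318 for rat ANXA2. The macaque row LOC697019, described in the tables as annexin A2-like, had 291 reads over the 6 libraries, 29 to 47 in calvaria and 47 to 76 in tibia, beside 1436 to 3044 for macaque ANXA2. Both can share reads with ANXA2, whose values in rat and macaque are uncertain to that extent.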

How the results depend on the processing

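In macaque the count of 4 called members became 1 (ANXA3) and that of 6 called partner genes became 2 at an absolute log2 fold over 1.1. All called symbols fell from 2812 to 1037 of 10536 at that threshold. ANXA3 was called in 19 of 19 settings, with log2 fold changes from 1.74 to 2.19, ANXA1 and ANXA11 in 18 of 19 and ANXA6 in 15. ANXA6 was not called at a false discovery rate under 0.05 (adjusted p = 0.0693). With library size alone ANXA5 became -0.0773 and ANXA7 -0.0324 on the log2 scale, and ANXA4 was called (adjusted p = 0.163); with a library left out ANXA5 ran from -0.0476 (without G2) to 0.139 (without T2), and was -0.0229 without G4. In mouse, the log2 fold change of ANXA8 ran from -4.59 to -4.12 over 16 settings, which is a description since ANXA8 was chosen for it. With a mouse library left out, 1 site has 1 library and takes its spread from the other site. Counts of called genes are therefore not given for those fits. Called mouse partner genes ran from 0 to 10 (10 without M4, 5 without M8) and were 1 with all symbols of the species. In rat 3 members passed a log2 threshold of 1. No paired analysis of the labels was possible because they share no replicate numbers. Neighbouring library codes were therefore assumed as pairs (r of deviations 0.169, 0.264 and 0.406 in macaque, against -0.323 to 0.0778 for other combinations). In mouse r was 0.0071 for the assumed pairs and -0.0071 for the other combinations, which does not tell the pairings apart. A fit with this replicate block called 4 macaque members, 7 macaque partner genes and 1 mouse member. It called 3573 of all 10536 symbols in macaque and 63 in mouse, where the other possible mouse pairing called 78. A fit with the letter of the library code as a batch called 4 macaque members and 8 partner genes, where 3592 of 10536 symbols were called. Low counts limit ANXA8 and ANXA9 in macaque and rat and ANXA11 in mouse; why these counts are low was not tested.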
